A study of Mus musculus with 6 samples.

Results

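The genes of the IL-21, IL-2 and IL-6 axis are 7 of the 19109 genes named in the peak list: the ligand genes Il21 and Il2 and the receptor chain genes Il21r, Il2ra, Il2rb, Il6ra and Il6st. A peak was a member when its gene symbol was one of these names, which gave 103 of the 282898 listed peaks: 9 at Il21, 4 at Il2, 17 at Il21r, 17 at Il2ra, 10 at Il2rb, 27 at Il6ra and 19 at Il6st. The rule itself reads no measured value, but the 7 genes were proposed with earlier results of these data known.

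The assay was ATAC-seq, where a transposase inserts sequencing adaptors into DNA that is open, so that reads pile up over accessible regions. The 6 groups were the populations Tfh21, Tfh214 and Tfh4 from wild-type (WT) and from Stat6 knockout (KO) mice on a C57BL/6 background, all untreated, with 1 library each. The cells of a genotype came from 10 mice, and 50000 cells went into each library. Stat6 is the transcription factor that IL-4 signalling activates. The age of the mice, the tissue, the kind of Stat6 allele and the gates of the sort are not given in the sources used here. Whether reporters of IL-21 or IL-4 defined the populations is likewise not given, so a difference at Il21 between populations may not be independent of the sort. With 1 library per group there is no replicate: an interval below covers counting error only, and the effect of genotype cannot be told apart from that of the mouse pool or of library preparation.

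T follicular helper cells make IL-21, which acts on B cells through IL-21R and the common gamma chain and drives STAT3 in the T cells themselves. IL-6, read by IL-6R with the shared signalling chain gp130, induces Il21 and the follicular program through the same STAT. IL-2 acts the other way: through CD25 (Il2ra), CD122 (Il2rb) and the common gamma chain it activates STAT5, which restrains follicular differentiation.

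Promoters of 6 of the 7 genes were matched in RefSeq (GRCm38.p6), and 4 are shown as background. The accessibility results below do not use these sequences. Each sequence is the sense strand from 250 bases before the start site up to the base before it. Capitals mark matches to the core of the NFAT site, GGAAA on either strand (TTTCC on the other), and at Il2 also TATAAA, the TATA box.
Il21 promoter (chr3:37232637-37232886, minus strand): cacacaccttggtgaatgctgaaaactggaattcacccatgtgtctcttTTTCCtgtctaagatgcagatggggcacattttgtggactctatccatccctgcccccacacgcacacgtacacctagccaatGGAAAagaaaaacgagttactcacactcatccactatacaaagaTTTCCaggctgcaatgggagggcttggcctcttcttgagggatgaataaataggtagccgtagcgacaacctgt
Il2 promoter (chr3:37125955-37126204, minus strand): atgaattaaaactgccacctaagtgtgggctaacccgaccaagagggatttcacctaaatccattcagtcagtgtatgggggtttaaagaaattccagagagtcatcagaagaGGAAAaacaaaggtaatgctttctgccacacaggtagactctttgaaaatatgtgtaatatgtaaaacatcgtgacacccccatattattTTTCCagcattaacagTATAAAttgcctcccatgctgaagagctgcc
Il2ra promoter (chr2:11642542-11642791, plus strand): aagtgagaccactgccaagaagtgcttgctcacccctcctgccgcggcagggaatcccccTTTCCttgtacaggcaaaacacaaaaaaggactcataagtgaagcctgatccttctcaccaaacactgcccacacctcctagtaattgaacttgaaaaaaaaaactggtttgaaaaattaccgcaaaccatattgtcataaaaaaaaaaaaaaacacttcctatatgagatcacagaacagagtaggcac
Il6st promoter (chr13:112463820-112464069, plus strand): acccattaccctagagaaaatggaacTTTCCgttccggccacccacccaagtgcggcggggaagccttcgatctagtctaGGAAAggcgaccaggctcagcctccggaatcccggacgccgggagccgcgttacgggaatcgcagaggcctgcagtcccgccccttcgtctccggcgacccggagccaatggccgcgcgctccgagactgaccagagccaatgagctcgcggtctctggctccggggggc

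NFAT, the calcineurin-dependent factor of T-cell receptor signalling, had 3 core matches in the Il21 promoter, 2 in Il2, 1 in Il2ra and 2 in Il6st, while Il21r and Il6ra had none. The same 5 letters were present in 55.6% of the 32851 RefSeq promoter windows of this length, so a match is common. The TATA box of Il2 began at -31, and 7.59% of all windows held those letters on the sense strand. A STAT-type site, TTCNNNGAA (7.02% of windows) or with 4 spacer bases TTCNNNNGAA (5.85%), was not found in any of the 6 windows, nor was the AP-1 letters TGANTCA (6.75%). Both strands were searched for these, and a missing match says only that the letters are not in the window. GC content ran from 40.4% at Il2, 42.4% at Il2ra and 47.6% at Il21 through 55.6% at Il21r to 65.2% at Il6ra and 66.0% at Il6st. CpG pairs numbered 2, 3, 5, 4, 18 and 26 in that order, against medians of 52.4% and 6 over all windows. RefSeq and the deposited peaks use different builds, so windows and peaks were not overlaid.

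The libraries held 798555 (KO Tfh214) to 1373218 (WT Tfh4) reads in peaks. For Tfh21, Tfh214 and Tfh4 the 7 genes took 404, 439 and 517 of them in the WT libraries and 445, 305 and 418 in KO, and reads are given in this order of populations throughout. Of the reads of all genes, 43.3% to 53.1% lay in start-site peaks, with KO above WT in each population and Tfh4 lowest in each genotype. Median-of-ratios scaling changed the size of a library by 0.836 (WT Tfh4) to 1.17 times (KO Tfh21). A gene ratio whose interval excludes 1 under only one of the scalings is given under both where it is named. The pooled ratios of single member peaks whose printed interval excludes 1 did so under both. Among fixed marker genes, the 6 of T cells summed to 265 to 398 CPM (reads per 1000000 reads in peaks) and the 6 of Tfh cells, among them Cxcr5, Pdcd1 and Bcl6, to 300.03 to 427 CPM. The B-cell markers Ms4a1 and Cd79a, Cd8a, Ncr1 and Hbb-b1 had no peak. The B-cell genes with peaks (4 of 6, mostly Pax5 and Ebf1) summed to 102 to 145 CPM in WT and 91.3 to 106 CPM in KO, and the 4 myeloid genes to 51.1 to 57.5 and 33.8 to 62.2 CPM. The 2 genes of regulatory T cells, Foxp3 and Ikzf2, summed to 176 to 185 CPM in WT and 182 to 230 CPM in KO, with KO above WT in each population. Nearly all of this was Ikzf2 (mean 188 CPM), while Foxp3 had a mean of 1.94 CPM. The part of these other cell types in the results, those at Il2ra included, was not tested.

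Accessibility of the 7 genes was of one order when taken per kilobase of peak. Mean levels over the 6 libraries were 13.7 ± 1.55 CPM per kb at Il2rb (SD over libraries of different groups), 12.2 ± 1.08 at Il6ra, 11.1 ± 2.20 at Il21r, 11.0 ± 2.72 at Il21, 10.8 ± 1.04 at Il2ra, 9.57 ± 1.13 at Il6st and 8.27 ± 1.46 at Il2. Neighbours in this order lay within each other's spread. At the start sites the genes stood farther apart. The start-site peaks of Il6st, the gp130 gene, held 36.8 ± 6.66 CPM per kb and that of Il2rb 31.3 ± 5.58, followed by Il6ra with 20.04 ± 2.19, Il21 with 17.2 ± 3.27, Il21r with 15.04 ± 8.12, Il2ra with 12.7 ± 7.85 and Il2 with 11.02 ± 2.41. Il6st and Il2rb ranged from 28.2 to 46.5 and from 25.7 to 40.3 CPM per kb, above every library of Il6ra, Il21, Il2 and Il2ra at their start sites. Of the 7 genes' reads 24.2% lay at start sites, from 20.3% in WT Tfh4 to 28.7% in KO Tfh4, below the share for all genes in each library. By gene it was 83.1% at Il2 and 43.9% at Il21, but 7.91% at Il2ra and 6.02% at Il21r, whose reads lay in introns and in the section the authors called 5′ UTR exon. That section reached far into the first introns: 88.0% of its peaks in the whole list lay over 1 kb from a start site.

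**Figure D1:**
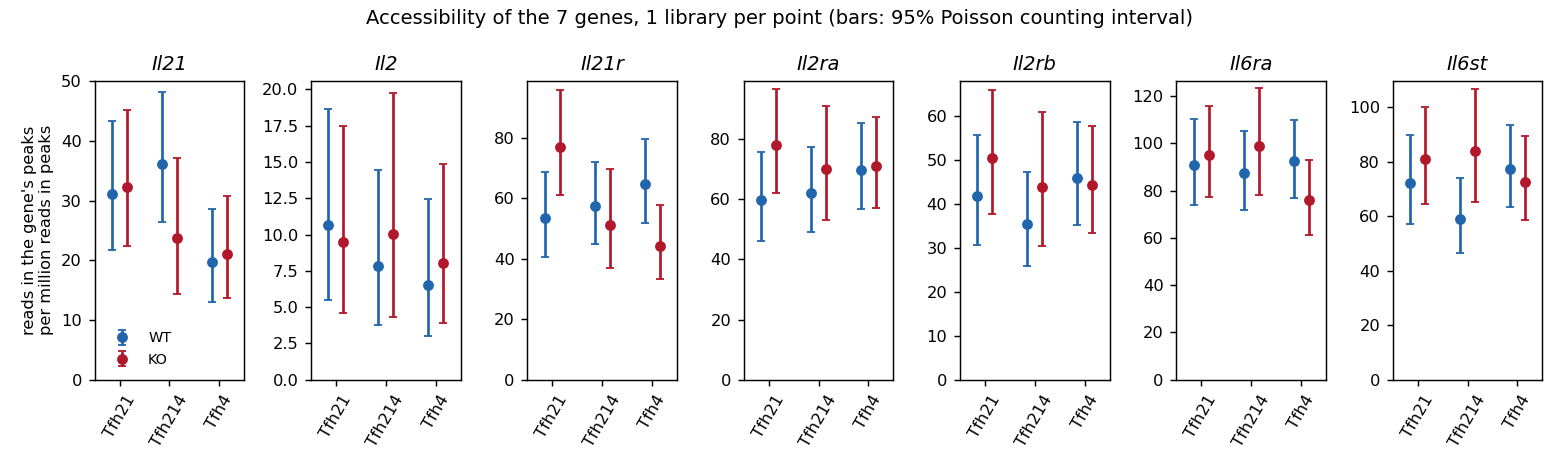
CPM of each gene summed over its peaks (vertical axis, from 0) in WT (blue) and Stat6 KO (red) libraries of the 3 populations. Each point is 1 library and each bar its 95% Poisson counting interval. At Il21 the Tfh4 libraries are the lowest of their genotype on this scale, and at Il21r the order of WT and KO changes between Tfh21 and Tfh4.

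The additive limma model of genotype and population on log2(CPM + 1) called none of the 6 members with a mean of at least 20 reads (all but Il2) at an adjusted p of 0.05, in any of 4 contrasts. Over all 10825 genes tested it called 0.0554% for KO against WT and 0.0% for Tfh214 against Tfh21, 0.0% for Tfh4 against Tfh21 and 0.0% for Tfh4 against Tfh214. Before adjustment limma gave 1 member a p under 0.05, Il21 in Tfh4 against Tfh21, where 12.7% of all genes tested had one. The edgeR and DESeq2 fits on the recovered reads gave 0 calls and 0 members under 0.05 in every contrast. The members' median log2 difference was 0.080 for KO against WT beside 0.071 over all genes tested, -0.11 beside -0.028 for Tfh214 against Tfh21, -0.088 beside -0.11 for Tfh4 against Tfh21 and 0.036 beside -0.077 for Tfh4 against Tfh214. Of single peaks, 2 of 103 reached a mean of 20 reads, the start-site peaks of Il6ra and Il6st, and limma called neither of them in any contrast. Among all 8986 peaks tested it called 0.857% for KO against WT, 0.0% for Tfh214 against Tfh21, 1.31% for Tfh4 against Tfh21 and 1.98% for Tfh4 against Tfh214. With 2 residual degrees of freedom and at most 127 reads in a gene and library, these fits could show only large differences, so the counts themselves are set out below with exact intervals.

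Il21, the gene of the main Tfh cytokine, was lower in Tfh4 than in Tfh21 in each genotype. Its 9 peaks on chromosome 3 held 35, 46 and 27 reads in WT, and 34, 19 and 26 in KO. As levels these were 31.2, 36.2 and 19.7 CPM in WT and 32.3, 23.8 and 21.0 CPM in KO. In CPM Tfh4 was the lowest in each genotype, and WT Tfh214 was the highest library. With median-of-ratios scaling KO Tfh214 (21.5) lay below KO Tfh4 (22.4), and Tfh4 was still below Tfh21 in each genotype. The Tfh4 to Tfh21 ratio was 0.631 (95% interval 0.367 to 1.07) in WT and 0.649 (0.374 to 1.11) in KO, and 0.639 (0.438 to 0.928) with genotypes summed. In limma the log2 difference was -0.62 ± 0.26 (SE), with a p of 0.0255 and an adjusted p of 0.339. Against Tfh214 the summed ratio was 0.646 (0.441 to 0.944), and Tfh214 to Tfh21 was 0.989 (0.694 to 1.41). Il21 was the 1 member of 7 whose interval excluded 1 for Tfh4 against Tfh21, where 13.4% of 17009 genes with at least 20 reads did so, and the 1 of 7 for Tfh4 against Tfh214, where 10.0% did. With median-of-ratios scaling the Il21 ratios were 0.779 (0.534 to 1.13) and 0.756 (0.516 to 1.10), which include 1.

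Within Il21, Tfh4 had fewer reads than Tfh21 in the intron peaks, while the start-site peaks held similar numbers. The peak over the promoter (chr3:37131555-37131984, mm9), the strongest of the gene with 69 reads, held 13, 14 and 12 reads in WT and 11, 7 and 12 in KO. Together with a weak peak at -984 from the start site, the start-site reads gave a Tfh4 to Tfh21 ratio of 1.03 (0.590 to 1.82). The 7 intron peaks held 21, 27 and 9 reads in WT and 23, 12 and 13 in KO. Their Tfh4 to Tfh21 ratio was 0.416 (0.238 to 0.709), which was 0.350 (0.141 to 0.798) in WT and 0.480 (0.223 to 0.987) in KO. With median-of-ratios scaling it was 0.507 (0.290 to 0.865), and 0.598 (0.278 to 1.23) within KO. Among the intron peaks, one 1086 bases into the gene (chr3:37130202-37130473) had 4, 4 and 0 reads in WT and 3, 1 and 0 in KO, so that Tfh4 held none, and its Tfh4 to Tfh21 interval ended at 0.577. A second intron 2 peak (chr3:37128720-37129059) had 6, 3 and 0 reads in WT and 4, 3 and 2 in KO, a ratio of 0.166 (0.0177 to 0.781). The strongest intron peak (chr3:37128134-37128441, 29 reads) had 6, 6 and 2 reads in WT but 5, 5 and 5 in KO.

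The contrast between the introns and the start of Il21 can be read without any scaling, as the odds of an intron read against a start-site read, a measure chosen after the values had been seen. In Tfh4 relative to Tfh21 these odds were 0.403 times as high (exact conditional 95% interval 0.181 to 0.895), while over all genes they were 1.27 times as high. No other member had an interval excluding 1 in this contrast, and 10.2% of 11235 genes with at least 10 reads in each kind of peak did. The value rests on where the peak at -984 is counted: with start-site peaks limited to 500 bases from the start it was 0.644 (0.290 to 1.43).

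By genotype, the Il21 sum did not differ beyond counting error: the KO to WT ratio was 0.892 (0.659 to 1.20), and it was 1.04 in Tfh21, 0.658 (0.364 to 1.15) in Tfh214 and 1.07 in Tfh4. The peak at -984 (chr3:37132543-37132793) was the exception among its peaks. It held 1, 5 and 6 reads in WT and 0, 0 and 1 in KO, a ratio of 0.102 (0.00238 to 0.687). KO was the lower library in each population, on 13 reads in all.

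Il2, the gene of the T-cell growth factor, was the least accessible member, with 12, 10 and 9 reads in WT and 10, 8 and 10 in KO. Levels lay between 6.55 and 10.7 CPM and overlapped between genotypes and between populations. Of its 59 reads, 49 fell in 3 adjoining start-site peaks (chr3:37024721-37024843, chr3:37024843-37025207 and chr3:37025207-37025387), and 10 in an intron 2 peak. The KO to WT ratio was 1.10 (0.637 to 1.90) and the Tfh4 to Tfh21 ratio 0.719 (0.368 to 1.39). At this depth a difference below about the width of these intervals was not detectable.

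**Figure D2:**
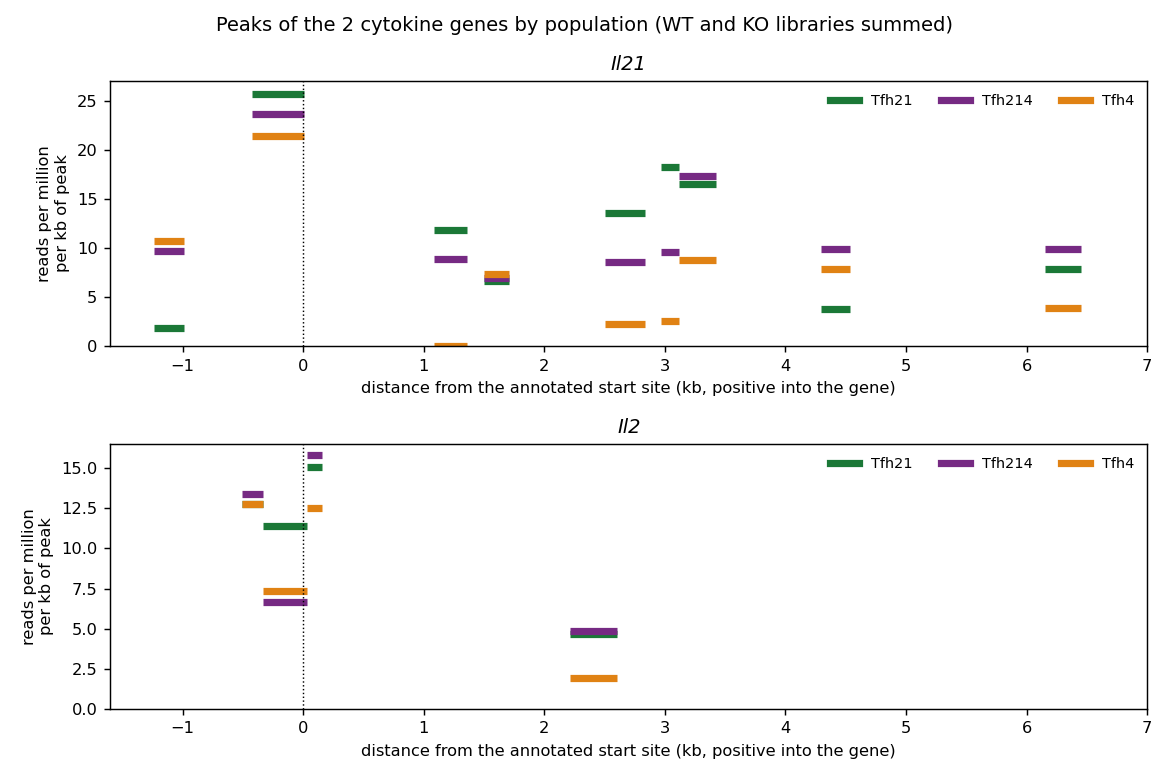
Peaks of Il21 and Il2 drawn at their distance from the annotated start site (horizontal axis, kb) and their level in CPM per kb of peak (vertical axis, from 0), WT and KO libraries summed for each population. In the 2 weakest intron 2 peaks for Tfh4 named in the text its bar lies at or near 0, while at the promoter peak of Il21 the 3 bars lie close together.

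Il21r, the chain that binds IL-21, showed opposite genotype differences in Tfh21 and Tfh4. Its 17 peaks on chromosome 7 held 60, 73 and 89 reads in WT and 81, 41 and 55 in KO, which are 53.4, 57.4 and 64.8 CPM in WT and 77.1, 51.3 and 44.4 CPM in KO. In CPM KO Tfh21 was the highest and KO Tfh4 the lowest of the 6 libraries. With median-of-ratios scaling WT Tfh4 (77.5) was the highest, above KO Tfh21 (65.8), and KO Tfh214 (46.4) the lowest, just under KO Tfh4 (47.3). The KO to WT ratio was 1.44 (1.02 to 2.05) in Tfh21, 0.894 (0.595 to 1.33) in Tfh214 and 0.685 (0.480 to 0.970) in Tfh4, and summed over populations it was 0.973 (0.794 to 1.19). Il21r was the 1 member of 7 whose interval excluded 1 in Tfh21 (6.4% of all genes with at least 20 reads) and the 1 of 7 in Tfh4 (8.05%). In Tfh214 the 1 member was Il6st (6.02%). With median-of-ratios scaling the Il21r ratio in Tfh21 was 1.22 (0.865 to 1.74) and no longer excluded 1, while that in Tfh4 was 0.610 (0.428 to 0.864).

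The ratio in Tfh21 was 2.10 times that in Tfh4 (exact conditional interval 1.28 to 3.48), and 2.004 times (1.21 to 3.31) with median-of-ratios scaling. This comparison was chosen after the values had been seen, and 21 were made in all, 7 members by 3 pairs of populations, of which Il21r in this pair was the 1 whose interval excluded 1. Over all genes with at least 20 reads, 4.85% had such an interval for this pair, 3.43% for Tfh21 against Tfh214 and 6.01% for Tfh214 against Tfh4. Within KO, the Tfh4 to Tfh21 ratio of Il21r was 0.576 (0.402 to 0.822), and within WT it was 1.21 (0.864 to 1.71). Under median-of-ratios scaling the KO value was 0.719 (0.501 to 1.02), which includes 1, and the WT value 1.44 (1.03 to 2.03), which does not.

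Of the single peaks of Il21r, the strongest (chr7:132750928-132751352, 91 reads, 3985 bases into the gene) held 15, 20 and 13 reads in WT and 16, 11 and 16 in KO, and none of its pooled intervals excluded 1. A peak at coding exon 3 (chr7:132768482-132768997) had 0, 7 and 3 reads in WT and 13, 6 and 3 in KO, a KO to WT ratio of 2.68 (1.22 to 6.35). In Tfh21 it gave 13 of the gene's 81 KO reads and 0 of its 60 WT reads, so part of the gene's excess there lay in this peak. Without the Tfh21 libraries the ratio of the peak was 1.17 (0.420 to 3.20), and without the Tfh214 libraries 5.81 (1.66 to 31.1). The start-site peaks (chr7:132746858-132746951 and chr7:132746951-132747089) held 24 reads in all. The first of them had 4, 1 and 2 reads in WT and 5, 0 and 1 in KO, with a Tfh214 to Tfh21 ratio of 0.117 (0.00266 to 0.842). The peak 2317 bases into the gene (chr7:132749260-132749462) was high in Tfh21 of each genotype, with 7, 1 and 2 reads in WT and the same in KO. Its ratio to Tfh21 was 0.15 (0.0165 to 0.653) in Tfh214 and 0.238 (0.0570 to 0.757) in Tfh4. The adjoining peak (chr7:132749462-132749617) had 2, 0 and 4 reads in WT and 3, 0 and 3 in KO, so that Tfh214 held none, and its Tfh4 to Tfh214 interval began at 1.14.

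Il2ra, which encodes the high-affinity chain CD25, had more reads at its start site in KO than in WT, on low counts. Its 2 start-site peaks (chr2:11564026-11564266 and chr2:11564266-11564472) held 3, 4 and 3 reads in WT and 7, 7 and 13 in KO. KO was the higher library in each of the 3 populations. The KO to WT ratio was 3.29 (1.55 to 7.63). After median-of-ratios scaling it was 2.90 (1.36 to 6.71). It was 2.49 (0.569 to 14.9) in Tfh21, 2.79 (0.709 to 13.0) in Tfh214 and 4.80 (1.32 to 26.3) in Tfh4, and without the Tfh4 libraries the pooled ratio was 2.59 (0.978 to 7.58). Il2ra was the 1 member of 7 whose start-site interval excluded 1, and 8.88% of 11236 genes with at least 20 start-site reads had such an interval. For Tfh4 against Tfh21 that share was 12.8%, and 0 of the 7 members were among them. Most of the difference lay in the second peak, over the start, with 3, 3 and 1 reads in WT and 5, 6 and 9 in KO (ratio 3.49, 1.42 to 9.76, and 2.37, 0.805 to 7.82, without Tfh4).

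The other 15 peaks of Il2ra, all intronic, stood at 64, 75 and 93 reads in WT and 75, 49 and 75 in KO, a KO to WT ratio of 1.05 (0.862 to 1.27). The odds of an intron read against a start-site read were 0.318 times as high in KO as in WT (0.134 to 0.699), against 0.863 over all genes. Il2ra was the 1 member of 7 with such an interval, beside 7.63% of all genes with 10 reads of each kind. The strongest peak of the gene (chr2:11575020-11575501, intron 1, 10601 bases from the start) held 24, 18 and 18 reads in WT and 17, 17 and 20 in KO. A weak peak 2530 bases into intron 1 (chr2:11566949-11567135) had 0, 1 and 1 reads in WT and 3, 1 and 5 in KO, with a ratio of 5.49 (1.14 to 52.2). Summed over all peaks Il2ra held 67, 79 and 96 reads in WT and 82, 56 and 88 in KO, with a KO to WT ratio of 1.14 (0.946 to 1.37). Its Tfh4 to Tfh21 ratio was 1.03 (0.824 to 1.28), or 1.25 (1.004 to 1.57) under median-of-ratios scaling.

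**Figure D3:**
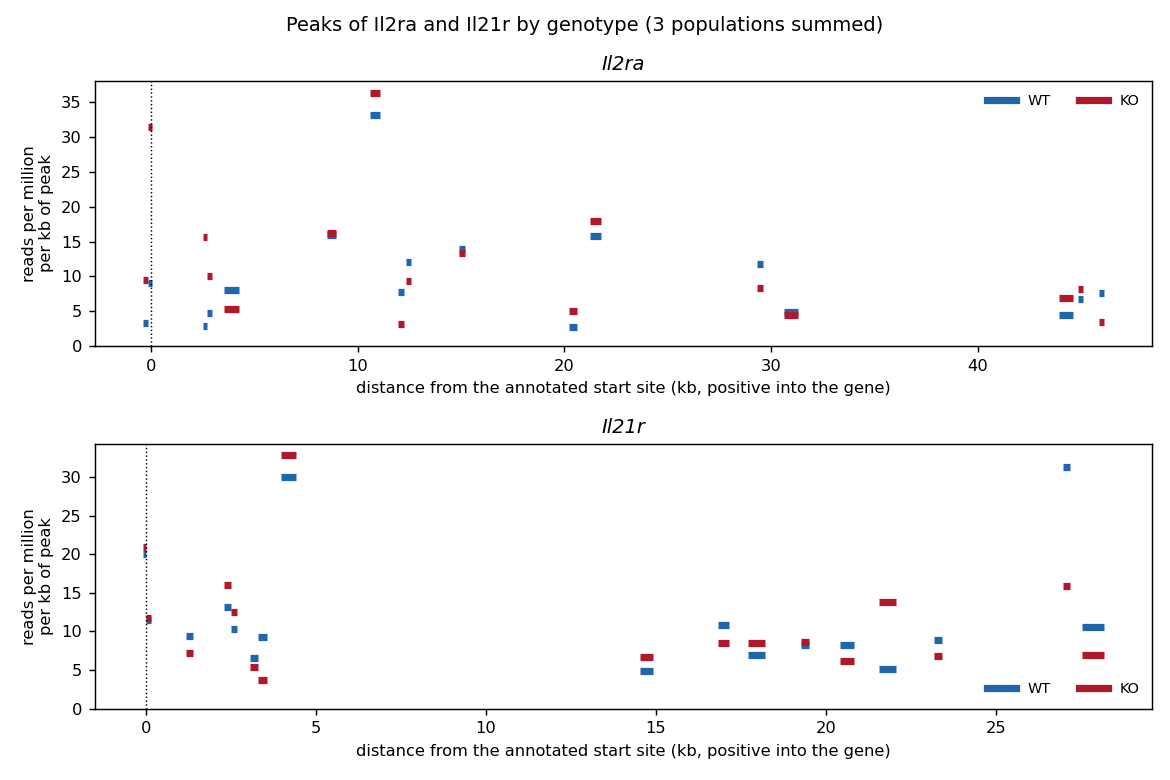
Peaks of Il2ra and Il21r at their distance from the annotated start site (horizontal axis, kb) and their level in CPM per kb of peak (vertical axis, from 0), with the 3 populations summed for WT (blue) and Stat6 KO (red). At Il2ra the bars of the start-site peak differ by 3.49 times, while at the strongest peak, in intron 1, they lie close together.

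Il2rb, the chain CD122 shared by the IL-2 and IL-15 receptors, overlapped between the genotypes in its levels. Its start-site peak (chr15:78325392-78325873, 104 reads) held 15, 22 and 17 reads in WT and 15, 11 and 24 in KO, and the gene summed to 47, 45 and 63 reads in WT and 53, 35 and 55 in KO. The KO to WT ratio was 1.13 (0.890 to 1.42). The highest library was KO Tfh21 in CPM and WT Tfh4 with median-of-ratios scaling. Of its 10 peaks, 1 had a pooled interval that excluded 1. That peak, 407 bases into the gene (chr15:78324813-78325090), had 1, 0 and 2 reads in WT and 6, 3 and 2 in KO, a ratio of 4.47 (1.18 to 24.97). Its sum for Tfh4 over Tfh214 was 1.17 (0.873 to 1.57), or 1.37 (1.02 to 1.84) under median-of-ratios scaling.

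Il6ra, the IL-6 binding chain, had the most reads of the 7 genes, with 102, 111 and 127 in WT and 100, 79 and 94 in KO. KO Tfh4 was the lowest library at 75.9 CPM, the others lying between 87.3 and 98.9 CPM. With median-of-ratios scaling KO Tfh4 (80.8) lay close to KO Tfh21 (81.3), and WT Tfh4 (110.6) was the highest. The KO to WT ratio was 0.980 (0.832 to 1.15). Its start-site peak (chr3:89716739-89717437, 133 reads) held 22, 22 and 26 reads in WT and 25, 15 and 23 in KO, with a limma log2 difference of 0.12 ± 0.22 for KO against WT. A second start-site peak, at -892 (chr3:89718011-89718368), held 11 reads in all. The densest peak of any member per kb, at 50.6 CPM per kb, lay in intron 9 (chr3:89676225-89676469), with 15, 12 and 19 reads in WT and 13, 11 and 14 in KO. An intron 1 peak 1850 bases from the start (chr3:89715129-89715269) had 3, 5 and 3 reads in WT and none in any KO library. Its KO to WT interval ended at 0.486, but the peak was listed through its WT reads alone. At the end of the gene (chr3:89673506-89673770) reads were 9, 11 and 3 in WT and 4, 7 and 4 in KO, a Tfh4 to Tfh214 ratio of 0.308 (0.109 to 0.773). A peak at coding exon 10 (chr3:89674975-89675117) had no read in either Tfh21 library and 4, 5, 4 and 2 reads in WT Tfh214, WT Tfh4, KO Tfh214 and KO Tfh4, so that its intervals over Tfh21 began at 1.79 for Tfh214 and 1.20 for Tfh4.

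Il6st, which encodes gp130, had the most start-site reads of the 7 genes, though per kb its start-site level overlapped that of Il2rb over the libraries. Its start-site peak (chr13:113254031-113254727, 172 reads) held 27, 28 and 27 reads in WT and 34, 23 and 33 in KO. In CPM, KO was above WT in each population, and the pooled ratio was 1.34 (0.982 to 1.83). limma put the difference at 0.40 ± 0.19 on the log2 scale, with a p of 0.0387 and an adjusted p of 0.216. Over all 8986 peaks in this fit the median difference was 0.19, and 1885 of them had an unadjusted p under 0.05. With median-of-ratios scaling that median was 0.0039. All 19 peaks of Il6st summed to 81, 75 and 106 reads in WT and 85, 67 and 90 in KO. The KO to WT ratio of the sum was 1.13 (0.942 to 1.35). In Tfh214, where WT was the lowest library at 59.0 CPM and KO the highest at 83.9 CPM, it was 1.42 (1.01 to 2.005). Median-of-ratios scaling gave 1.27 (0.8999 to 1.79) there, which includes 1, and made WT Tfh4 the highest library while WT Tfh214 remained the lowest. The Tfh4 to Tfh214 ratio was 1.09 (0.877 to 1.37), or 1.28 (1.03 to 1.60) under median-of-ratios scaling.

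Outside the start-site peak, 5 of the Il6st peaks had a pooled interval that excluded 1. Per genotype these were a peak 10366 bases into the gene (chr13:113264644-113264944) with 3, 1 and 3 reads in WT and 3, 7 and 7 in KO (ratio 2.96, 1.17 to 8.45), one at 6329 bases (chr13:113260607-113260851) with 0, 1 and 2 in WT and 7, 4 and 1 in KO (4.88, 1.32 to 26.9), and one at 460 bases (chr13:113254738-113254966) with 1, 1 and 7 in WT and 0, 1 and 0 in KO (0.136, 0.00309 to 0.978). The first of these ratios was 1.82 (0.598 to 6.08) without the Tfh214 libraries, 3.24 (0.933 to 14.1) without the Tfh4 libraries and 4.54 (1.43 to 19.0) without the Tfh21 libraries. The remaining 2 peaks were low in Tfh214. At coding exon 3 (chr13:113265306-113265848) reads were 6, 0 and 8 in WT and 2, 1 and 3 in KO, and the Tfh4 to Tfh214 ratio was 8.72 (1.27 to 375). At coding exon 9 (chr13:113283867-113284357) Tfh214 held none of 12 reads, and its interval over Tfh21 ended at 0.892.

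**Figure D4:**
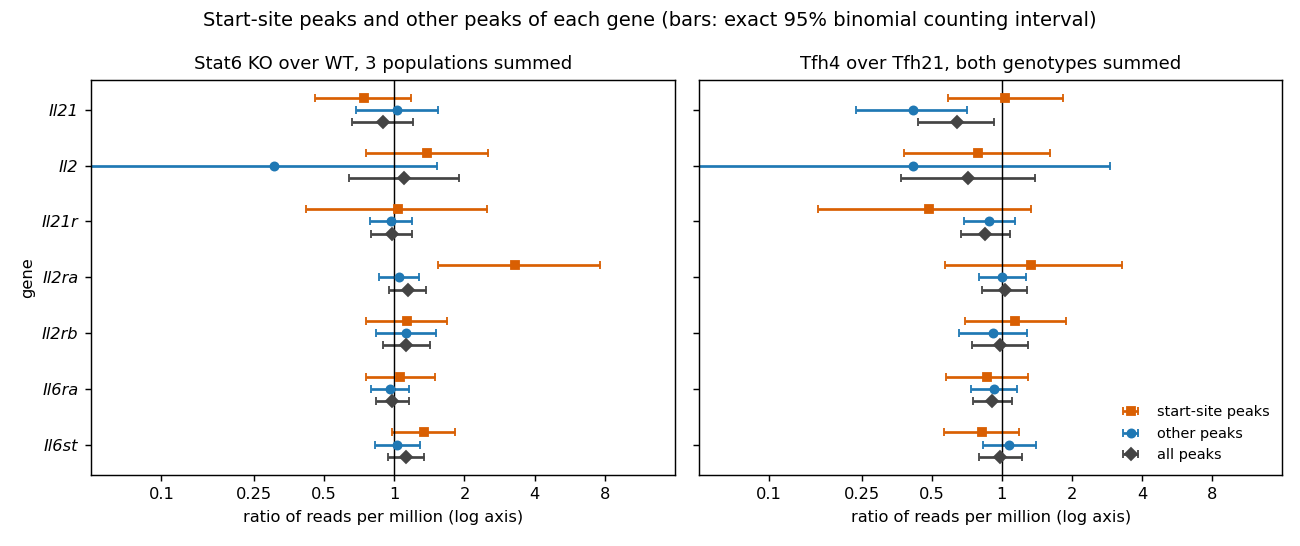
Ratio of CPM for each gene (log axis) in its start-site peaks (squares), its other peaks (circles) and all peaks (diamonds), for Stat6 KO over WT and for Tfh4 over Tfh21, with exact 95% binomial counting intervals; 2 bars of Il2 are cut at the left edge. The start-site square of Il2ra stands at 3.29 on the left, and the circle of Il21 at 0.416 on the right.

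Over all members, no gene sum had a pooled interval excluding 1 for KO against WT (11.1% of all genes did) or for Tfh214 against Tfh21 (6.21%). Of the 36 member peaks with at least 20 reads, 3 had such an interval for KO against WT, beside 7.53% of 64221 peaks. For Tfh214 against Tfh21 it was 2 (4.19%), for Tfh4 against Tfh21 1 (7.09%), and for Tfh4 against Tfh214 2 (7.95%). These counts lay near the share over all peaks. A further 12 peaks with such an interval in any contrast, all described above, held 10 to 18 reads each. No share over all peaks this weak was computed, so the 12 cannot be read against a background. They lie near the lowest total of any listed peak, 10 reads, and their intervals are no support for a difference between groups. The remaining 85 of the 103 peaks had no such interval.

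**Figure D5:**
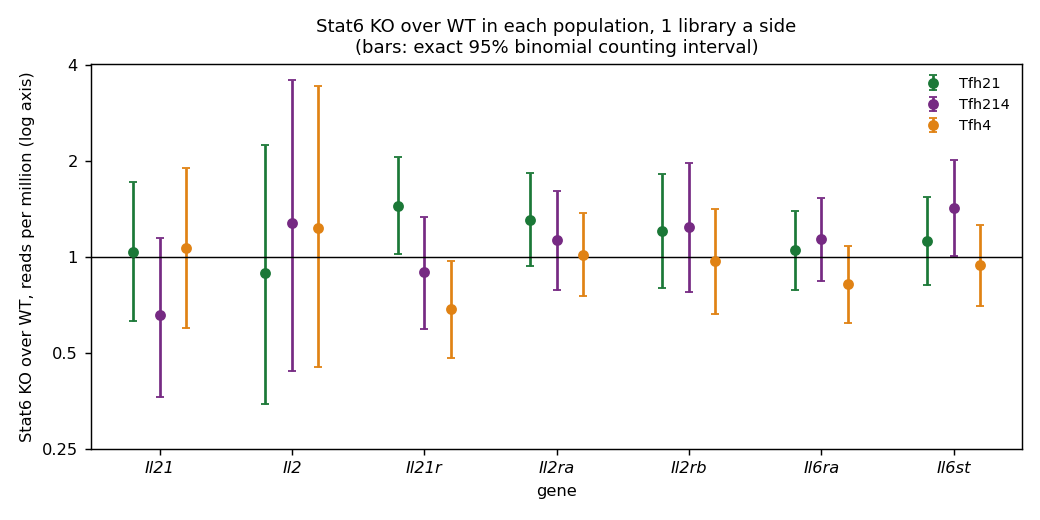
Stat6 KO over WT ratio of CPM (log axis) for each gene within Tfh21, Tfh214 and Tfh4, 1 library a side, with exact 95% binomial counting intervals. For Il21r the Tfh21 point lies above 1 at 1.44 and the Tfh4 point below it at 0.685, while the intervals of Il2 and Il2rb include 1 in every population.

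The genes around the axis were taken as 5 lists of pathway members, and limma called none of the 37 listed genes it tested in any contrast. Before adjustment it gave 7 of the 37 a p under 0.05 for KO against WT, 1 for Tfh214 against Tfh21, 10 for Tfh4 against Tfh21 and 5 for Tfh4 against Tfh214. Over all 10825 genes that share was 11.1%, 5.1%, 12.7% and 10.1% in the same order. edgeR and DESeq2 made 0 calls among them, with 2, 1, 4 and 3 unadjusted p under 0.05 in edgeR (8.83%, 4.47%, 10.7% and 9.03% of all genes) and 0 in DESeq2. Medians of the lists follow in the order of these contrasts, in which the median of all genes tested was 0.071, -0.028, -0.11 and -0.077. Of 11 further ligands of the common gamma chain and gp130 families, 9 had peaks and 2 could be tested, Lif and Osm, with medians of 0.20, -0.30, -0.13 and 0.18. Il6 and Il9 had none. Osm, the gene of the gp130 ligand oncostatin M, stood at a log2 difference of 0.53 ± 0.23 for KO against WT (adjusted p = 0.399, limma), and Lif at -0.12 ± 0.21. Of 10 further receptor chains 3 were tested, with medians of 0.082, -0.030, -0.25 and -0.33. Il4ra, the IL-4 receptor chain that leads to Stat6, stood at 0.15 ± 0.15 for KO against WT, and Il15ra at -0.51 ± 0.21 for Tfh4 against Tfh21 (adjusted p = 0.329).

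All 9 kinases and STATs were tested, with medians of 0.13, -0.14, -0.14 and -0.073. Jak1, the kinase that these receptors share, stood at 0.23 ± 0.10 for KO against WT (adjusted p = 0.381, limma), and Stat4 at 0.10 ± 0.12. Of 9 feedback inhibitors and phosphatases 8 were tested, with medians of 0.052, -0.22, -0.33 and -0.077. Among them Ptpn11 stood at -0.51 ± 0.18 for Tfh4 against Tfh21 (adjusted p = 0.269) and Ptpn2, a phosphatase acting on JAK and STAT proteins, at -0.33 ± 0.16. For KO against WT, Ptpn2 stood at 0.34 ± 0.13 (adjusted p = 0.334, limma) and Ptpn11 at 0.022 ± 0.14. All 15 transcription factors of Il2 and Il21, or below their receptors, were tested, with medians of 0.14, -0.068, -0.27 and -0.16. Nfatc1 and Nfatc2, which encode NFAT proteins, stood at -0.27 ± 0.12 each for Tfh4 against Tfh21 (adjusted p = 0.361 and 0.353). The median gene stood at a Tfh4 to Tfh21 ratio of 0.959 by reads and of 1.17 with median-of-ratios scaling, so the differences between Tfh4 and Tfh21 are relative to a level that the scaling moves.

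Patterns most like those of the members over the 6 libraries, by Pearson's r of log2(CPM + 1) among 10825 genes, were those of Gpr89 (0.987) and Pogk (0.977) for Il21 and of Rps6ka1 (0.992) and Dnaaf1 (0.985) for Il21r. With 6 points that share library depth, 80 genes had an r above 0.9 with Il21 and 104 with Il21r. For the other 4 members tested the 2 nearest genes had r of 0.977 to 0.998.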

How the data were processed

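Deposited values were CPM, which the authors scaled to reads in 1 common list of peaks. The submitters' processing notes name Bowtie 1.3.0, MACS2 2.0, HOMER and mm9. Whether peaks were called on pooled libraries, and how duplicates and cut positions were treated, is not given in the sources used here. Positions are as deposited, and gene symbols came from the field headed as gene ID.

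Whole reads were recovered from the CPM step of each library. At least 99.9989% of values came out within 0.02 of a whole read, and at most 3 in a library did not. All reads of a symbol were summed. limma 3.58.1 (R 4.3.3) with a variance trend was fitted to log2(CPM + 1) of features with a mean of at least 20 reads, with Benjamini-Hochberg adjustment over all features; that scale understates changes of low features. edgeR 4.0.16 called 0 members on recovered reads, as did DESeq2 1.42.0. The scripts were tested on simulated data. Ratios carry exact binomial 95% intervals (scipy 1.17.1), odds exact conditional ones and levels Poisson ones. They describe counting error alone, and copies made by PCR add to the true error.

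All 7 members are named, with each peak that was the strongest of its gene, lay at a start site or had a pooled interval excluding 1. Of each list the 2 genes with the most reads are named. Members and lists were chosen with earlier results of these data known. The odds and the ratios between populations were added after the values had been seen.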

Additional observations from a re-analysis of the deposited data

Results flagged for a closer look

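Il21r had KO to WT ratios on opposite sides of 1 in 2 populations, each with a counting interval that excluded 1: 1.44 in Tfh21 (81 against 60 reads) and 0.685 in Tfh4 (55 against 89 reads). The ratio between them was 2.10 (1.28 to 3.48). With 1 library a side, the difference was not tested over animals. Under median-of-ratios scaling the ratio in Tfh21 was 1.22 (0.865 to 1.74), so the excess there depends on the scaling, while the ratio between the populations was 2.004 (1.21 to 3.31). Part of the excess in Tfh21 lay in 1 weak peak at a coding exon, described above. In the strongest peak of Il21r alone the Tfh4 ratio was 1.36.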

How the results depend on the processing

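No alternative made a limma, edgeR or DESeq2 call among the members. Of 316 member effects recomputed under other settings, 269 kept their sign and 47 changed it. All of these were uncalled. Changed log2 differences are given in the order median-of-ratios, TMM, edgeR and DESeq2. Il6ra in Tfh214 against Tfh21 became 0.042, 0.036, 0.015 and 0.031. Il2rb in Tfh4 against Tfh21 became 0.25, 0.25, 0.084 and 0.086, and Il6st 0.25, 0.25, 0.085 and 0.085. Il21r in Tfh4 against Tfh214 became 0.22, 0.22, 0.079 and 0.073. The Il6ra start-site peak became -0.063, -0.064, -0.071 and -0.067 for KO against WT and 0.076, 0.073, 0.074 and 0.080 for Tfh4 against Tfh21. The Il6st start-site peak became 0.099, 0.10, 0.10 and 0.10 for Tfh4 against Tfh214. Under the 2 scalings alone, Il2rb became -0.013 and -0.014 for KO against WT, Il21r 0.025 and 0.022 and Il6ra 0.13 and 0.13 for Tfh4 against Tfh21, and Il6ra 0.090 and 0.092 for Tfh4 against Tfh214. With the strongest peak or start-site peaks only, Il6ra became 0.12 and 0.084 for KO against WT and 0.054 and 0.042 for Tfh4 against Tfh214, and Il6st -0.13 and -0.13 there. Without start-site peaks Il6ra became 0.076 for Tfh214 against Tfh21 and Il6st 0.089 for Tfh4 against Tfh21. For KO against WT, Il21 became 0.071 without the Tfh214 libraries, and Il21r 0.18 and Il6ra 0.12 without the Tfh4 libraries.

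The number of members whose pooled interval excluded 1 moved as follows. For KO against WT it was 0, and became 1 with start-site peaks only, without the Tfh21 libraries and without the Tfh4 libraries. For Tfh214 against Tfh21 it became 1 without WT. For Tfh4 against Tfh21 it was 1 (Il21), and became 0 with the strongest peak, with start-site peaks (Il21 ratio 1.03) and without KO. Under median-of-ratios scaling the number there stayed 1, but the member was Il2ra, higher in Tfh4, in place of Il21. For Tfh4 against Tfh214 it was 1 and became 3 under median-of-ratios and TMM scaling, with Il2ra, Il2rb and Il6st in place of Il21, and 0 with the strongest peak, start-site peaks and without WT. Within populations, the 1 member for KO against WT became 0 in Tfh21 and 0 in Tfh214, and 2 in Tfh4 (Il21r and Il6ra), under both scalings. It became 0 with the strongest peak in all 3 (Il21r in Tfh4 then 1.36), and 0 without start-site peaks in Tfh214. With start-site peaks it became 0 in Tfh21 and in Tfh214, and the 1 member in Tfh4 was Il2ra in place of Il21r. Within WT, Tfh4 against Tfh21 moved from 0 to 2 under both scalings and 1 without start-site peaks, and Tfh4 against Tfh214 from 1 to 2 under both scalings, 3 without start-site peaks and 0 with the strongest or start-site peaks. Tfh214 against Tfh21 there moved to 1 with the strongest peak. Within KO, Tfh214 against Tfh21 moved from 1 to 0 under each of these, and Tfh4 against Tfh21 from 1 to 0 under both scalings, the strongest peak and start-site peaks, and to 2 without start-site peaks. Fewer reads enter the narrower peak sets, and the cause of other moves was not tested. The start-site share was 25% with peaks within 500 bases. Without a filter or with one of 10 reads, with a pseudocount of 0.5 and without the variance trend no member was called. The additive model compares KO with WT within populations, and the labels gave no replicate numbers for a further block. The depth limits peaks most, since 101 of the 103 had a mean under 20 reads.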

Other observations

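Peaks that carry no gene symbol, within 50 kb of each transcript, held more reads than the genes' own peaks at several members. Around Il21 there were 37 such peaks with 776 reads, beside 187 reads in its own 9 peaks. Their summed Tfh4 to Tfh21 ratio was 0.829 (0.698 to 0.985), but 1.01 (0.851 to 1.20) under median-of-ratios scaling. The strongest (chr3:37158375-37158871, mm9), 27.1 kb upstream of the Il21 start, held 27, 23 and 13 reads in WT and 20, 15 and 22 in KO, with a Tfh4 to Tfh21 ratio of 0.620 (0.388 to 0.981), but 0.756 (0.473 to 1.20) under median-of-ratios scaling. As levels these were 24.0, 18.1 and 9.47 CPM in WT and 19.0, 18.8 and 17.8 CPM in KO, so Tfh4 was the lowest in each genotype, while with median-of-ratios scaling it was the highest in KO (18.9).

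Around Il6st, 27 such peaks held 1027 reads, with a KO to WT ratio of 1.17 (1.03 to 1.32) and a Tfh4 to Tfh21 ratio of 0.797 (0.685 to 0.927). Under median-of-ratios scaling these were 1.03 (0.907 to 1.16) and 0.972 (0.836 to 1.13), which include 1. One of them (chr13:113214665-113215759), 39.1 kb upstream, held 339 reads, more than any peak with a member's name. Its reads were 53, 67 and 42 in WT and 60, 47 and 70 in KO, a KO to WT ratio of 1.33 (1.07 to 1.66), but 1.17 (0.943 to 1.46) under median-of-ratios scaling. Around Il2ra, 7 such peaks held 139 reads, with a Tfh214 to Tfh21 ratio of 1.75 (1.12 to 2.78), which excluded 1 under both scalings. Their KO to WT ratio was 0.775 (0.541 to 1.10), or 0.682 (0.476 to 0.971) under median-of-ratios scaling. Around Il2rb the Tfh4 to Tfh214 ratio of 17 peaks was 1.305 (1.01 to 1.70), and likewise excluded 1 under both scalings. No share over such windows at other genes was computed for any of these ratios. Which gene these peaks act on was not tested, and other genes lie within some of the windows, among them Il15ra beside Il2ra and Il4ra beside Il21r.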
